A study of Mus musculus with 18 samples.

Results

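The clustered protocadherins are a family of cell adhesion proteins encoded by 3 gene clusters that follow one another on mouse chromosome 18. Members were taken by symbol (Pcdha followed by a digit or c, Pcdhb followed by a digit, Pcdhg followed by a, b or c and a digit), which gave 57 genes among the 18389 listed for hippocampus and the 18235 listed for cortex. Of these, 14 belonged to the alpha cluster, 22 to the beta cluster and 21 to the gamma cluster. The 18 libraries were of poly(A) RNA from the hippocampus and the cerebral cortex of mice, 3 for each of 6 groups. In each tissue, 1 group was fresh tissue with no treatment, 1 was snap-frozen by dropping it straight into liquid nitrogen, and 1 was vitrified. For vitrification, tissue was loaded in 5 min steps with rising strengths of a solution holding 28 wt% ethylene glycol and 22.3 wt% dimethyl sulfoxide, plunged into liquid nitrogen and held for 4 days at -80 °C, after which it was warmed in a 37 °C bath and the agents were washed out in falling steps. All libraries were made the same way, from tissue homogenised in TRIzol after its treatment. The labels used here name no strain, age, sex or animal, nor whether the 3 libraries of a group came from separate animals, so the p-values measure only the spread between libraries, which may be technical. The comparisons with fresh tissue share the fresh libraries of that tissue.

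In the alpha and gamma clusters, each member has its own long first exon, with its own promoter. This exon codes for the extracellular and transmembrane parts and is spliced to constant exons shared by the whole cluster. Beta members are single-exon genes with no constant part. A neuron is known to switch on a small and largely random set of these promoters, through binding of CTCF and cohesin that loops a promoter to a distant enhancer, and the resulting set of cadherin proteins binds like sets on other membranes, which lets branches of one neuron recognise and avoid each other. The C-type isoforms at the 3′ ends of the alpha and gamma clusters (Pcdhac1, Pcdhac2, Pcdhgc3, Pcdhgc4 and Pcdhgc5) are known to be expressed more uniformly.

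On the GRCm38 assembly and on the plus strand, the alpha members spanned chr18:36930285-37187657, the beta members chr18:37264938-37524479 and the gamma members chr18:37661793-37841873. Each of the 14 alpha transcripts had 4 exons, a first exon of 2346 to 3028 bases and later exons of 2860 bases in all, which made up 48.6 to 54.9% of the transcript. The gamma transcripts had first exons of 2542 to 2961 bases and later exons of 2116 to 2119 bases, or 41.7 to 45.5% of the transcript. The beta genes were single exons of 2588 to 8695 bases. GC content set the clusters apart as well, at 39.1 to 49.0% in beta, 46.5 to 49.8% in alpha and 51.0 to 55.4% in gamma transcripts.

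Sharing of exons showed in the deposited values themselves, which are expected counts, that is, reads divided among the transcripts they could have come from. All 14 alpha and all 21 gamma members held non-whole values, each in 17 or 18 of the 18 libraries, whereas 0 of the 22 beta members did. Over the 18235 genes of both tables, 9.03% held a non-whole value. Within groups, the variance between replicates divided by the mean had a median, over all members and groups of libraries, of 2.07 in the alpha cluster and 1.65 in the gamma cluster, against 0.653 in the beta cluster and 0.790 in genes with whole values at 20 to 500 counts. Averaged over the 6 groups for each member, the same ratio ran from 1.02 to 5.78 in the alpha cluster, where Pcdha9 was highest, from 0.307 to 1.21 in the beta cluster, and from 1.14 to 5.15 in the gamma cluster, where Pcdhgc5 was highest. For Pcdha9 this drew largely on the second fresh cortex library, at 19.1 CPM against 11.7 and 11.8 CPM in the others. For Pcdhgc5 it drew largely on the third snap-frozen cortex library, at 193 CPM against 218 and 217 CPM. Pcdhgc5 also lay above 500 counts, outside the range of the genes with whole values. The standard errors given here come from edgeR's fit, which draws each gene's spread toward the trend over all genes. For members whose libraries spread more widely than that trend, the standard errors and p-values can understate the member's own spread. How much of the spread comes from dividing reads was not tested, and an error of that division common to all libraries would not show in it. A change of 1 alpha or gamma member can be shared with another that holds the same constant exons.

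Library totals ran from 15725356 to 17480302 expected counts, of which 0.0966 to 0.114% fell on the members, and a level of 3 counts corresponded to 0.172 to 0.191 CPM, the expected counts scaled to a library total of 1000000. In a principal component analysis of hippocampus, the first component (68.2% of the variance) set the snap-frozen libraries apart. In cortex, the first component (49.0%) set the vitrified libraries apart, and the third snap-frozen library stood away from its group on the second component (-17.77 against -10.79 and -10.11). Regional markers went against a plain reading of the snap-frozen hippocampus label. A list of 12 thalamus markers, chosen after the data were seen, summed to 762 to 799 CPM in the snap-frozen and 159 to 167 CPM in the fresh hippocampus, and markers of hippocampal fields to 813 to 827 against 1307 to 1311 CPM. In snap-frozen cortex, markers of hippocampal fields summed to 395 to 414 CPM against 323 to 326 CPM in fresh cortex. Snap-freezing and tissue content cannot be told apart in these libraries, and in bulk tissue fewer cells of a type cannot be told from less RNA per cell.

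In fresh tissue, the C types Pcdhgc5 and Pcdhgc3 were the most abundant members, followed by Pcdhac2, the isoform that serotonergic axons are known to need for tiling. Per kilobase of transcript, Pcdhgc5 stood at 42.9 ± 0.387 CPM per kb in hippocampus and 47.6 ± 1.80 CPM per kb in cortex, and Pcdhgc3 at 30.5 ± 1.67 CPM per kb and 32.3 ± 0.886 CPM per kb. Pcdhac2 followed at 12.3 ± 0.179 CPM per kb in hippocampus and 15.97 ± 0.953 CPM per kb in cortex. The next was Pcdhga11, with 11.5 ± 0.179 CPM per kb in hippocampus and 10.2 ± 0.299 CPM per kb in cortex. The other C types were not set apart by their level: Pcdhgc4 stood at 3.92 ± 0.241 CPM per kb and Pcdhac1 at 1.67 ± 0.0517 CPM per kb in hippocampus, within the range of the alternate isoforms of their clusters.

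Among the alternate isoforms, those chosen by random promoter use, levels were spread widely as well. In the alpha cluster the median member stood at 1.67 CPM per kb in fresh hippocampus and 1.76 in fresh cortex, and the lowest were Pcdha1, Pcdha6 and, at 0.202 ± 0.0544 CPM per kb in hippocampus, Pcdha8. Pcdha12 was the highest alternate alpha isoform in both tissues. In the beta cluster, Pcdhb9 was highest, at 4.87 ± 0.314 CPM per kb in hippocampus and 4.68 ± 0.325 CPM per kb in cortex, with Pcdhb17, Pcdhb12 and Pcdhb20 next, and the median was 1.396 in hippocampus and 1.29 in cortex. Pcdhb1 held 0 to 5 counts per library, with 0 in 2 cortex libraries, where a count of 0 still allows 0.174 to 0.176 CPM, and it was the 1 member of 57 left out of the tests for low counts. Gamma members were the highest as a group, with a median of 4.48 CPM per kb in hippocampus and 4.34 in cortex and Pcdhgb4 lowest at 1.74 ± 0.121 CPM per kb and 1.80 ± 0.235 CPM per kb. Across the 57 members, log2 levels in the 2 fresh tissues had a correlation of 0.976, points that share transcript length, annotation and read assignment.

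**Figure D1:**
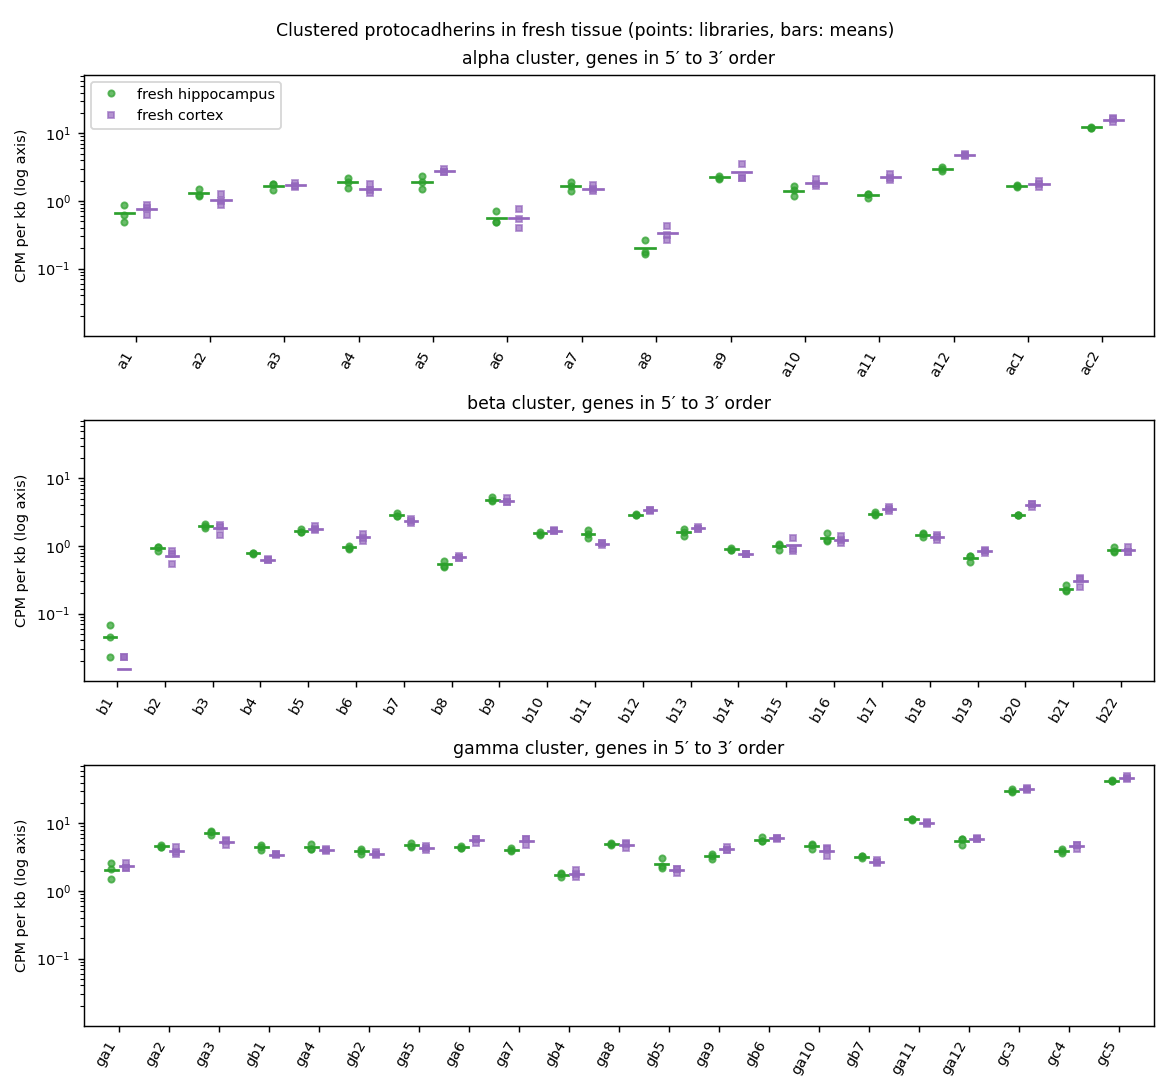
CPM per kilobase of transcript (log axis) of each clustered protocadherin in the 3 fresh hippocampus libraries (green circles) and the 3 fresh cortex libraries (purple squares), with group means as bars and genes in 5′ to 3′ order. Pcdhgc5, Pcdhgc3 and Pcdhac2 lie above all other members in both tissues and Pcdhb1 lies lowest; a cortex library with 0 counts of Pcdhb1 is not drawn.

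Fresh hippocampus and fresh cortex shared this order but differed in many single members, which the comparison of untreated tissues shows. Of the 56 members tested, 13 were higher and 13 lower in hippocampus, against 28.5% higher and 27.8% lower, 56.4% in all, over the 14827 genes tested. The share of all members called (46.4%) lay below that of all genes. By cluster it was 50.0% in alpha, 28.6% in beta and 61.9% in gamma members. The test here and below was edgeR's quasi-likelihood test with Benjamini-Hochberg adjustment over all genes at a threshold of 0.05, and fold changes are log2 values ± SE after TMM scaling. In the alpha cluster 5 members were lower and 2 higher in hippocampus (median -0.20), in the beta cluster 3 and 3 (median 0.00), and in the gamma cluster 5 lower and 8 higher (median 0.08). The median over all genes was 0.01.

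The alpha members that were lower in hippocampus were Pcdha5, Pcdha10, Pcdha11, Pcdha12 and Pcdhac2, and those that were higher were Pcdha2 (0.36 ± 0.14) and Pcdha4 (0.34 ± 0.12). Pcdha11 had 6.88, 6.80 and 5.85 CPM in the hippocampus libraries and 11.8, 13.3 and 10.8 CPM in the cortex libraries, without overlap (-0.84 ± 0.13, adjusted p = 2.37e-07). Pcdha12 had 14.6, 15.8 and 17.2 CPM in hippocampus and 25.3, 26.3 and 24.3 CPM in cortex (-0.64 ± 0.08, adjusted p = 3.68e-09). Both lie over the opposite-strand gene Gm10545, and the strand setting of the counting is not given in the sources used here. Pcdhac2, downstream of them, was also lower in hippocampus, with 73.6, 71.9 and 71.7 CPM against 95.8, 87.8 and 98.6 CPM (-0.34 ± 0.05, adjusted p = 1.94e-08), as were Pcdha5 (-0.48 ± 0.10) and Pcdha10 (-0.36 ± 0.11). Summed over the alpha cluster, hippocampus held 175.9 ± 2.81 CPM and cortex 219.6 ± 4.92 CPM (SD, n = 3) and the libraries of the tissues did not overlap.

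Of the gamma members, Pcdhga3 was higher in hippocampus, with 35.5, 36.6 and 31.4 CPM against 22.4, 25.7 and 26.9 CPM in cortex (0.50 ± 0.07, adjusted p = 4.52e-08). Pcdhgb1 (0.41 ± 0.09), Pcdhga11 (0.22 ± 0.05) and Pcdhga2 (0.27 ± 0.08) were higher as well. Pcdhga7 (-0.42 ± 0.08), Pcdhga9 (-0.33 ± 0.07) and Pcdhga6 (-0.30 ± 0.07) were lower. Among whole-count beta genes, Pcdhb20 had 10.4, 10.2 and 10.3 CPM in hippocampus and 15.03, 13.2 and 14.7 CPM in cortex (-0.44 ± 0.08, adjusted p = 1.93e-05), and Pcdhb11 had 5.87, 6.66 and 7.57 CPM and 4.81, 4.92 and 4.496 CPM (0.53 ± 0.12, adjusted p = 2.14e-04). Neither gene overlapped between the tissues. Of the gamma C types, Pcdhgc4 (-0.19 ± 0.07, adjusted p = 0.0161) and Pcdhgc5 (-0.11 ± 0.04, adjusted p = 0.00628) were lower in hippocampus, calls that were lost when single libraries were left out, and Pcdhgc3 did not pass (-0.05 ± 0.04, adjusted p = 0.322).

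Markers of other cells and regions differed between the fresh tissues too. All 12 endothelial genes (median -0.86), 9 of 11 choroid plexus genes (median -2.78), 10 of 11 meningeal fibroblast genes (median -1.88), 10 of 13 inhibitory neuron genes (median -0.55) and all 11 striatum genes (median -3.59) were lower in hippocampus. All 10 ependymal genes (median 1.18) and 10 of 11 tested genes of hippocampal fields (median 3.47) were higher. The part of these cells in the differences of the members was not tested.

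The question behind the preservation groups is how far vitrification and snap-freezing move the transcriptome away from that of fresh tissue. In vitrified hippocampus, the change that stood out among the protocadherins was a fall of Pcdhgc3, a C-type isoform that in mouse cortical neurons is known to promote dendrite branching and to bind the Wnt pathway scaffold Axin1. Pcdhgc3 (chr18:37806410-37841873, 4 exons) had 139, 152 and 138 CPM in the fresh and 61.4, 67.0 and 63.3 CPM in the vitrified libraries. The groups did not overlap, with the highest vitrified library far below the lowest fresh one (-1.22 ± 0.04, adjusted p = 4.34e-30). By fold change this was the 260th lowest of 14528 genes tested. Its first exon lies opposite BC037039, so that reads of the pair cannot be told apart if strand was not used in counting. The other gamma C types lay close to the fresh libraries, Pcdhgc4 at -0.12 ± 0.07 (adjusted p = 0.157) and Pcdhgc5 at 0.04 ± 0.03 (adjusted p = 0.188).

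Of the 56 members tested, 8 rose and 7 fell in vitrified against fresh hippocampus, against 23.8% higher and 25.3% lower, 49.1% in all, over 14528 genes, so that 26.8% of the members were called. The median change was 0.00 over the members and 0.01 over all genes. In the alpha cluster 1 member rose, Pcdhac1, with 9.30, 8.75 and 9.09 CPM in fresh and 10.9, 11.6 and 10.4 CPM in vitrified libraries (0.22 ± 0.10, adjusted p = 0.0499), and this call was lost in 11 of 16 alternative settings. In the beta cluster 4 rose and 3 fell, and in the gamma cluster 3 rose and 4 fell.

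The beta changes were of single genes with whole counts. Pcdhb15 (chr18:37473540-37476340) had 2.41, 2.94 and 3.02 CPM in fresh and 4.38, 4.49 and 5.23 CPM in vitrified hippocampus (0.70 ± 0.16, adjusted p = 2.40e-04). Pcdhb6 (chr18:37333946-37337674) had 3.41, 3.53 and 3.79 CPM in fresh and 1.94, 2.28 and 3.34 CPM in vitrified libraries (-0.56 ± 0.17, adjusted p = 0.00662). The vitrified libraries lay above all fresh ones for Pcdhb15 and below all fresh ones for Pcdhb6, and both genes had under 6 CPM in every library. Pcdhb2, with 2.70, 2.36 and 2.72 CPM against 1.44, 1.90 and 1.64 CPM, fell by 0.70 ± 0.20 (adjusted p = 0.00299). Pcdhb14 (-0.38 ± 0.12) fell, and Pcdhb17 (0.26 ± 0.08), Pcdhb9 (0.24 ± 0.08) and Pcdhb12 (0.23 ± 0.09) rose.

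In the gamma cluster, Pcdhgb7 had 15.7, 14.4 and 15.6 CPM in fresh and 10.3, 9.67 and 11.4 CPM in vitrified hippocampus, with no overlap (-0.60 ± 0.09, adjusted p = 1.39e-07). Like Pcdhga10, Pcdhga11 and Pcdhga12, it lies over the opposite-strand gene Gm26672, and those 3 neighbours did not pass. Pcdhga9 rose, from 16.6, 14.0 and 15.5 CPM to 21.1, 18.7 and 21.0 CPM (0.34 ± 0.08, adjusted p = 1.96e-04). Pcdhga1 (0.32 ± 0.11) and Pcdhga4 (0.20 ± 0.07) rose, and Pcdhgb2 (-0.26 ± 0.08) and Pcdhgb6 (-0.21 ± 0.06) fell.

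**Figure D2:**
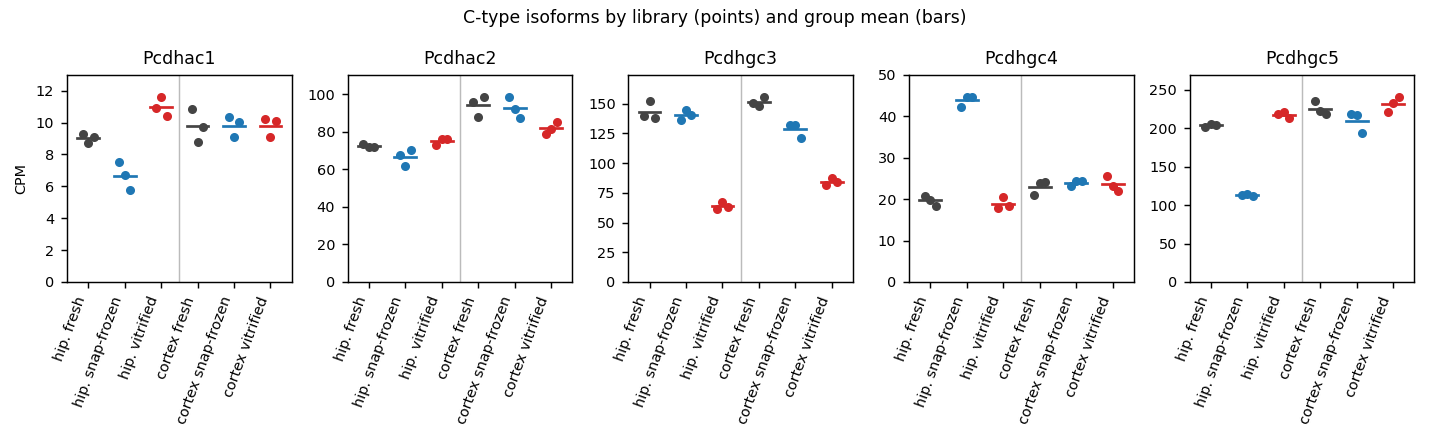
CPM of the 5 C-type isoforms in each library (points) with the group mean (bar), hippocampus left and cortex right of the grey line, grey for fresh, blue for snap-frozen and red for vitrified. Pcdhgc3 is lower in the vitrified libraries of both tissues, while Pcdhgc4 is higher and Pcdhgc5 lower in the snap-frozen hippocampus but not by a like amount in the snap-frozen cortex.

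Vitrified against fresh cortex gave the same direction for Pcdhgc3, which had 150.1, 148 and 156 CPM in fresh and 81.3, 87.2 and 84.3 CPM in vitrified libraries (-0.86 ± 0.04, adjusted p = 3.21e-16). The groups did not overlap, and this was the 230th lowest fold change of 14470 genes. The fall was larger in hippocampus: the interaction, cortex minus hippocampus, was 0.32 ± 0.06, adjusted p = 1.40e-04. Pcdhgc4 (0.02 ± 0.07, adjusted p = 0.870) and Pcdhgc5 (0.02 ± 0.04, adjusted p = 0.737) did not pass in cortex either.

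Of the 56 members tested in cortex, 6 rose and 6 fell on vitrification, against 23.2% higher and 17.3% lower, 40.5% in all, over 14470 genes, so that 21.4% of the members were called, with a median change of 0.02 over the members and 0.03 over all genes. In the alpha cluster Pcdha4 rose (0.34 ± 0.12) and 3 members fell. Pcdhac2 had 95.8, 87.8 and 98.6 CPM in fresh and 78.7, 81.6 and 85.0 CPM in vitrified cortex (-0.22 ± 0.05, adjusted p = 5.58e-04). Pcdha3 had 8.69, 9.81 and 8.997 CPM in fresh and 5.35, 6.98 and 6.42 CPM in vitrified cortex (-0.57 ± 0.12, adjusted p = 3.14e-04). Neither overlapped between the groups, and Pcdha5 (-0.25 ± 0.08) was the third. For Pcdhac2 and Pcdha3 the change in cortex was below that in hippocampus, by interactions of -0.25 ± 0.07, adjusted p = 0.00671 and -0.54 ± 0.16, adjusted p = 0.0163.

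In the beta cluster 1 member rose and 1 fell in vitrified cortex, both of which had moved the same way in hippocampus. Pcdhb15 had 3.64, 2.40 and 2.54 CPM in fresh and 3.98, 4.13 and 4.36 CPM in vitrified cortex (0.52 ± 0.16, adjusted p = 0.0103), a call lost without the second or the third fresh library and with DESeq2. Pcdhb6 had 4.46, 5.56 and 4.91 CPM in fresh and 3.61, 3.82 and 2.78 CPM in vitrified cortex (-0.56 ± 0.15, adjusted p = 0.00279). Its vitrified libraries all lay below the fresh ones. Of the gamma members besides Pcdhgc3, Pcdhga4 (0.28 ± 0.08), Pcdhga6 (0.21 ± 0.06), Pcdhga1 (0.28 ± 0.11) and Pcdhga3 (0.20 ± 0.08) rose and Pcdhgb6 (-0.20 ± 0.06) fell. Without the first vitrified cortex library, 2 in place of 6 members rose.

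The changes on vitrification could be set side by side in the 2 tissues, which share no library in these contrasts. Across the 56 members, the correlation of the hippocampus change with the cortex change was 0.721, and 0.62 over the 53 members other than Pcdhgc3, Pcdhgc4 and Pcdhgc5. By cluster it was 0.851 over 21 beta, 0.83 over 21 gamma and 0.319 over 14 alpha members. The gamma value includes Pcdhgc3, the lowest change in both tissues (-1.22 in hippocampus and -0.86 in cortex), and was not computed without it. The points of each correlation share transcript sequence, length and read assignment between the tissues. The interaction passed for 6 of 56 members, 3 in each direction, against 7.01% higher and 5.89% lower, 12.9% in all, of 14827 genes.

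Astrocyte markers changed on vitrification as well. All 16 of 16 listed astrocyte genes fell on vitrification in hippocampus (median -1.51) and in cortex (median -0.85), and their summed level was 7566 to 7633 CPM in fresh and 2827 to 2866 CPM in vitrified hippocampus. In cortex it was 8259 to 8374 in fresh and 4599 to 4686 CPM in vitrified libraries. Aqp4, the astrocyte water channel, changed by -1.65 ± 0.03 in hippocampus and -1.27 ± 0.04 in cortex, while Slc17a7, which loads glutamate into vesicles of excitatory neurons, stood at 0.00 ± 0.02 (adjusted p = 0.966) in hippocampus and -0.01 ± 0.02 (adjusted p = 0.884) in cortex. Of the 12 excitatory neuron genes, 3 rose and 2 fell in hippocampus (range -0.58 to 0.22) and 4 rose and 2 fell in cortex (range -0.51 to 0.47), and their sum was lower without overlap, at 7508 to 7613 CPM against 8545 to 8711 CPM in fresh hippocampus and 6213 to 6286 CPM against 7049 to 7119 CPM in fresh cortex. In cortex, all 11 of 11 choroid plexus genes fell too, from a sum of 326 to 420.2 CPM to 10.1 to 11.1 CPM, as did all 11 meningeal fibroblast genes (median -1.29), and 10 of 12 endothelial genes rose (median 0.44). In hippocampus, 10 of 12 microglia genes (median -0.67) and all 10 ependymal genes (median -1.79) fell, 9 of 12 oligodendrocyte genes fell and 2 rose (median -0.28), and all 12 endothelial genes rose (median 0.90). No defining marker was at 0. The part of these cells in the changes of Pcdhgc3 and the other members was not tested.

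Snap-frozen against fresh hippocampus gave a different set of C-type changes. Pcdhgc5, an isoform known to bind the GABA-A receptor, had 202, 205 and 204 CPM in fresh and 113, 115 and 111 CPM in snap-frozen libraries (-0.97 ± 0.03, adjusted p = 2.86e-32). Pcdhgc4, which mouse cortical interneurons are known to need for survival, had 20.8, 19.9 and 18.4 CPM in fresh and 42.2, 44.7 and 44.6 CPM in snap-frozen libraries (1.04 ± 0.06, adjusted p = 1.25e-20). Neither overlapped, and the 2 genes, whose first exons lie next to each other, moved in opposite directions. Pcdhac1 fell, from 9.30, 8.75 and 9.09 CPM to 7.52, 6.68 and 5.77 CPM (-0.57 ± 0.11, adjusted p = 8.02e-06), and Pcdhac2 had 73.6, 71.9 and 71.7 CPM and then 67.6, 61.7 and 70.03 CPM (-0.24 ± 0.04, adjusted p = 8.23e-07). TMM scaling lowered all fold changes of this comparison, that of Pcdhac2 included. It put the median of all genes at 0.01, against 0.13 with library totals. Pcdhgc3, with 139, 152 and 138 CPM and 136, 144 and 141 CPM, overlapped between the groups; its -0.15 ± 0.03, adjusted p = 1.41e-04 rested on the scaling, and with library totals it was -0.03 (adjusted p between 1.30e-06 and 0.472 over 16 alternative settings).

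Of the 56 members tested, 8 rose and 19 fell, against 31.5% higher and 30.7% lower, 62.2% in all, over 14528 genes, so that 48.2% of the members were called. The median change was -0.08 over the members and 0.01 over all genes. Scaled by library totals, which moved the median of all genes to 0.13, the members split as 15 higher and 14 lower. In the alpha cluster 1 rose and 7 fell (median -0.19), in the gamma cluster 2 rose and 12 fell (median -0.23), and in the beta cluster 5 rose and 0 fell (median 0.13). For the beta cluster, 0 members also fell with DESeq2, and 1 of the 21 tested fell at an unadjusted p under 0.05.

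In the gamma cluster, 10 of the 12 that fell were of the a and b types. Pcdhga11 had 54.6, 55.7 and 54.0 CPM in fresh and 42.5, 42.9 and 40.8 CPM in snap-frozen hippocampus (-0.50 ± 0.04, adjusted p = 2.51e-14). Pcdhga3 had 35.5, 36.6 and 31.4 CPM and 26.6, 27.2 and 25.8 CPM (-0.50 ± 0.06, adjusted p = 2.46e-10). Pcdhga5 had 21.1, 23.7 and 21.3 CPM and 16.1, 16.9 and 13.5 CPM (-0.62 ± 0.07, adjusted p = 5.94e-10). For each of these 3 genes all snap-frozen libraries lay below all fresh ones. Pcdhga2, Pcdhga4, Pcdhga8, Pcdhga10, Pcdhga12, Pcdhgb1 and Pcdhgb2 fell by 0.23 to 0.48, and Pcdhga7 rose (0.26 ± 0.07). The libraries of Pcdhga4 and Pcdhga12 overlapped between the groups in CPM. Of the alpha members, Pcdha9 had 11.8, 12.4 and 11.4 CPM and 8.80, 10.999 and 7.36 CPM (-0.51 ± 0.10, adjusted p = 1.54e-05). Pcdha1 (-0.67 ± 0.21), Pcdha5 (-0.39 ± 0.11), Pcdha6 (-0.49 ± 0.20) and Pcdha3 (-0.25 ± 0.10) fell, and Pcdha8, the lowest alpha member, rose (0.81 ± 0.28). The 5 beta genes that rose were Pcdhb8 (0.62 ± 0.20), Pcdhb4 (0.37 ± 0.15), Pcdhb10 (0.36 ± 0.13), Pcdhb6 (0.36 ± 0.15) and Pcdhb3 (0.23 ± 0.10), each under 10 CPM, and none of the 5 calls held in all 16 alternative settings.

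**Figure D3:**
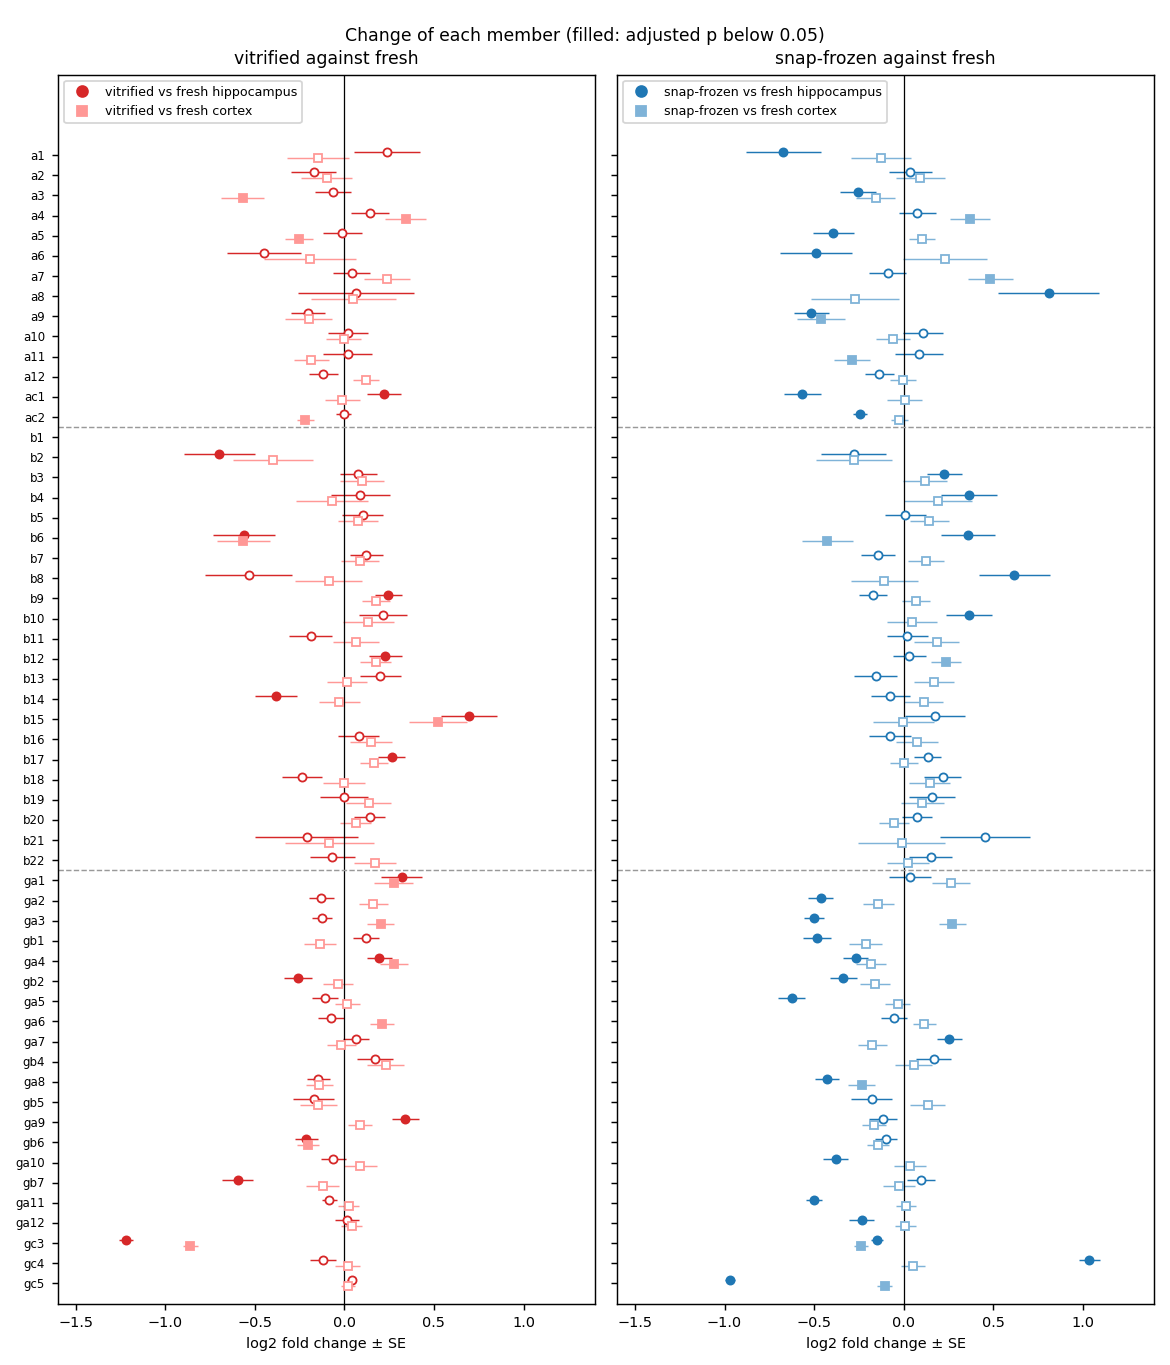
Log2 fold change ± SE of each of the 56 tested members against fresh tissue, vitrified in the left and snap-frozen in the right panel, circles for hippocampus and squares for cortex, filled where the adjusted p was below 0.05; dashed lines part the alpha, beta and gamma clusters, and Pcdhb1 was not tested. Pcdhgc3 is the lowest point of both vitrified series, while Pcdhgc4 (1.04) and Pcdhgc5 (-0.97) are the extremes of the snap-frozen hippocampus.

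Regional and cell-type markers moved with the snap-frozen hippocampus. Of 11 tested thalamus genes 10 rose (median 1.21), and of 11 tested genes of hippocampal fields 10 fell (median -0.69). Of 12 excitatory neuron genes 11 fell (median -0.94), with a sum of 8545 to 8711 CPM in fresh and 5014 to 5125 CPM in snap-frozen libraries, and Slc17a7 changed by -1.27 ± 0.02. Of 13 inhibitory neuron genes 5 rose and 7 fell (median -0.34, range -1.54 to 1.61), with Gad1, the GABA-synthesising enzyme, at 0.58 ± 0.02. All 12 oligodendrocyte genes rose (median 0.63, with Mbp, a myelin protein, at 0.61 ± 0.02), and all 12 endothelial genes rose (median 1.26). Of 16 astrocyte genes 11 rose and 4 fell (median 0.24, range -0.55 to 0.76), unlike in the vitrified hippocampus. The vitrified hippocampus, in contrast, had thalamus markers at 161 to 170.3 CPM, close to the fresh 159 to 167 CPM. The part of these tissue differences in the changes of Pcdhgc4, Pcdhgc5 and the other members was not tested.

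In snap-frozen against fresh cortex, Pcdhgc3 was lower while Pcdhgc4 did not pass. Of the 56 tested, 4 rose and 6 fell, against 16.4% higher and 17.6% lower, 34.0% in all, over 14470 genes, so that 17.9% of the members were called, and the median was 0.01 over the members and 0.00 over all genes. Without the third snap-frozen library, which stands apart from its group, 5 rose and 4 fell; without the first fresh library 1 rose, and without the second fresh library 1 fell. Pcdhgc3 fell, with 150.1, 148 and 156 CPM in fresh and 132, 132 and 121 CPM in snap-frozen libraries (-0.24 ± 0.04, adjusted p = 2.81e-05), and this call held in all 16 alternative settings. Its groups did not overlap. Pcdhgc5, with 235, 222 and 219 CPM and 218, 217 and 193 CPM, passed narrowly (-0.11 ± 0.04, adjusted p = 0.0472), and without the third snap-frozen library its change was -0.05. Pcdhgc4 did not pass (0.05 ± 0.07, adjusted p = 0.595).

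Alternate isoforms that rose in snap-frozen cortex were Pcdha7 (0.48 ± 0.12), Pcdha4 (0.37 ± 0.11), Pcdhb12 (0.24 ± 0.08) and Pcdhga3 (0.27 ± 0.07), and those that fell were Pcdha9, Pcdha11 (-0.29 ± 0.10), Pcdhb6 (-0.43 ± 0.14) and Pcdhga8 (-0.24 ± 0.08). The call of Pcdha9 rested on 1 fresh library. Its fresh cortex values were 11.7, 19.1 and 11.8 CPM against 9.40, 9.90 and 11.7 CPM (-0.46 ± 0.13, adjusted p = 0.00775), and without the second fresh library the change was -0.19. Pcdha7 and Pcdhgc3 kept their calls in all 16 alternative settings. Beside these changes, 13 of 16 astrocyte genes fell and 1 rose in snap-frozen cortex (median -0.18, with sums of 6999 to 7285 CPM against 8259 to 8374 CPM in fresh cortex), and all 11 choroid plexus genes (median -0.96) and 7 of 11 meningeal fibroblast genes (median -0.36) fell. Regional markers moved in snap-frozen cortex as well: 9 of 10 tested genes of hippocampal fields rose (median 0.72, up to 2.87), and 9 of 11 striatum genes fell (median -0.23). The part of these differences in the changes of the members was not tested.

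The interaction, which sets the snap-frozen against fresh change of a member in cortex against that in hippocampus, passed for 16 of 56 members. Of these, 11 had a higher change in cortex and 5 a lower one, against 55.0% of 14827 genes (26.6% and 28.3%). With library totals the split was 8 and 9. The largest among the C types were Pcdhgc4 (-0.996 ± 0.09, adjusted p = 1.98e-12) and Pcdhgc5 (0.85 ± 0.05, adjusted p = 1.12e-17), followed by Pcdhac1 (0.56 ± 0.14, adjusted p = 9.33e-04). Pcdhga3 fell in snap-frozen hippocampus and rose in snap-frozen cortex, with an interaction of 0.76 ± 0.10, adjusted p = 1.40e-08, and Pcdhb6 did the reverse (-0.80 ± 0.21, adjusted p = 0.00104). Across the 56 members the correlation of the hippocampus change with the cortex change was 0.08. Neither the interactions nor this correlation can tell snap-freezing from tissue content, since thalamus markers stood higher in snap-frozen than in fresh hippocampus.

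The direct comparison of the preserved groups, which uses the same libraries as above, drew these differences together. In vitrified against snap-frozen hippocampus 22 of 56 members were higher and 10 lower, against 33.8% and 34.0%, 67.8% in all, over 14528 genes, and with library totals 19 were higher and 16 lower. By cluster, 5 alpha members were higher and 1 lower, 5 beta members were higher and 5 lower, and 12 gamma members were higher and 4 lower. Pcdhgc3 (-1.07 ± 0.04) and Pcdhgc4 (-1.16 ± 0.06) were lower and Pcdhgc5 (1.01 ± 0.03), Pcdhac1 (0.79 ± 0.10) and Pcdhac2 (0.24 ± 0.04) higher in the vitrified libraries. Among the alternate isoforms called, the widest gaps were those of Pcdhb8 (-1.15 ± 0.22), Pcdhb6 (-0.92 ± 0.16), Pcdha1 (0.91 ± 0.20), Pcdha8 (-0.74 ± 0.28) and Pcdhgb7 (-0.69 ± 0.08). In vitrified against snap-frozen cortex 5 members were higher and 5 lower, against 25.5% and 24.2%, 49.6% in all, over 14470 genes. Pcdhga4 (0.46 ± 0.08), Pcdhb15 (0.52 ± 0.16), Pcdhga2 (0.30 ± 0.08), Pcdhga9 (0.25 ± 0.07) and Pcdhgc5 (0.13 ± 0.04) were higher, and Pcdhgc3 (-0.62 ± 0.04), Pcdha3 (-0.41 ± 0.12), Pcdha5 (-0.35 ± 0.08), Pcdhgb5 (-0.28 ± 0.10) and Pcdhac2 (-0.19 ± 0.05) lower.

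Summed over a cluster, where the division of reads among isoforms of one cluster cancels, the gamma members were lower in every preserved group. Their total was 759.9 ± 14.4 CPM in fresh, 695.4 ± 6.86 in vitrified and 651.4 ± 10.1 in snap-frozen hippocampus, and 776.6 ± 2.34, 732.7 ± 4.01 and 731.4 ± 34.5 in the same groups of cortex (SD, n = 3; no test was made on sums). The ranges did not overlap with fresh tissue in any of the 4 cases. The snap-frozen cortex range reached from 691.6 CPM in the third library to 752 CPM. Leaving out the 3 C types, the remaining 18 gamma members summed to 393.6 ± 8.98 CPM in fresh and 395.3 ± 0.280 CPM in vitrified hippocampus, but to 354.3 ± 4.23 CPM in snap-frozen hippocampus. TMM scaling turned the log2 ratio of vitrified to fresh hippocampus for this sum from 0.01 to -0.05. In cortex that sum was 376.9 ± 3.76 CPM fresh, 393.6 ± 11.1 CPM vitrified and 369.4 ± 14.3 CPM snap-frozen.

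The beta total, from whole counts, was higher in every preserved group, at 135.9 ± 2.32 CPM in fresh, 148.3 ± 0.558 in vitrified and 154.5 ± 1.04 in snap-frozen hippocampus. In cortex it was 140.6 ± 2.92 CPM in fresh, 151.0 ± 4.26 in vitrified and 147.2 ± 1.58 in snap-frozen libraries. TMM scaling narrowed the log2 ratio of the snap-frozen to the fresh hippocampus from 0.19 to 0.07 for beta, and widened it from -0.22 to -0.34 for gamma and from -0.08 to -0.20 for alpha. The alpha total was 175.9 ± 2.81 CPM in fresh, 181.3 ± 6.88 in vitrified and 166.0 ± 3.75 in snap-frozen hippocampus, and 219.6 ± 4.92, 204.9 ± 1.34 and 217.8 ± 8.04 in the same groups of cortex. TMM scaling turned the alpha log2 ratio of vitrified to fresh hippocampus from 0.04 to -0.01.

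**Figure D4:**
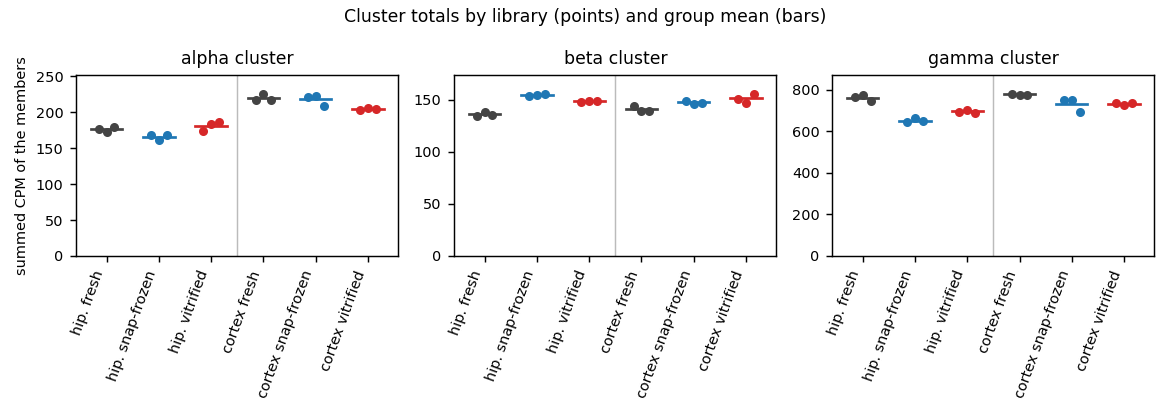
Summed CPM of the alpha, beta and gamma members in each library (points) with the group mean (bar), hippocampus left and cortex right of the grey line, grey for fresh, blue for snap-frozen and red for vitrified. The gamma totals of the preserved groups (643.8 to 752 CPM) lie below those of their own fresh tissue and the beta totals above.

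As shares of the gamma total, the 3 C types differed between treatments. Pcdhgc3 made up 18.8 ± 0.767% of the gamma total in fresh, 9.19 ± 0.340% in vitrified and 21.6 ± 0.321% in snap-frozen hippocampus. Pcdhgc5 made up 26.8 ± 0.531%, 31.3 ± 0.382% and 17.3 ± 0.154%, and Pcdhgc4 2.59 ± 0.126%, 2.71 ± 0.182% and 6.73 ± 0.168% in the same order. In cortex, Pcdhgc3 made up 19.5 ± 0.525% in fresh, 11.5 ± 0.449% in vitrified and 17.6 ± 0.0617% in snap-frozen libraries (mean ± SD, n = 3). In the alpha cluster, Pcdhac2 held 39.9 to 42.9% of the total in each of the 6 groups.

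**Figure D5:**
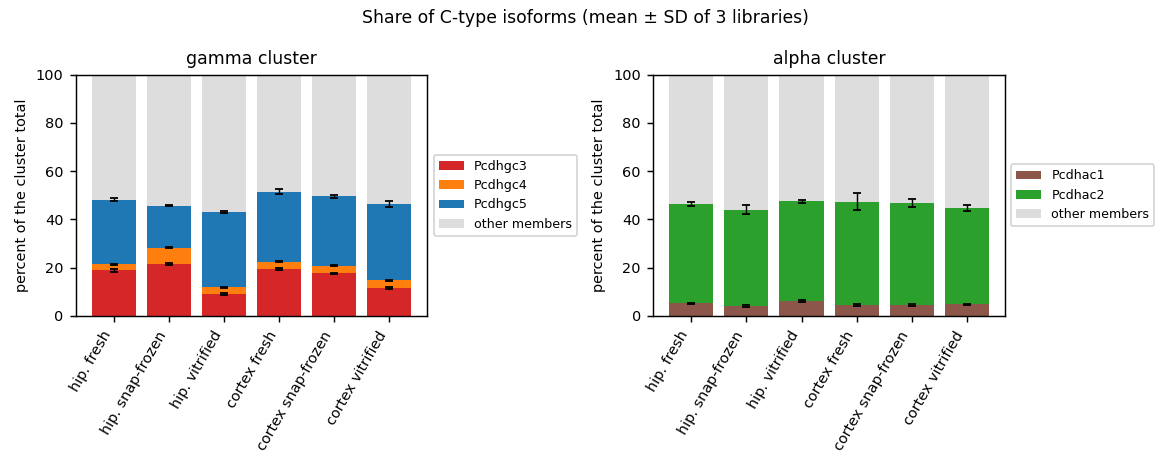
Percent of the gamma (left) and alpha (right) cluster total taken by each C-type isoform in the 6 groups, as stacked bars of group means with SD over 3 libraries and all other members in light grey. Pcdhgc3 takes 18.8% of the gamma total in fresh and 9.19% in vitrified hippocampus, and Pcdhgc5 falls to 17.3% in snap-frozen hippocampus.

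Genes that act with the protocadherins were read from lists that name CTCF and cohesin, DNA and histone methylation, cytoplasmic partners and shedding enzymes, non-clustered protocadherins, and classical cadherins with catenins. Of 11 CTCF and cohesin genes, 3 rose and 4 fell in vitrified hippocampus (median -0.03), 1 rose and 6 fell in snap-frozen hippocampus (median -0.12), 1 passed in vitrified cortex, a rise (median 0.03), and 4 rose and 1 fell in snap-frozen cortex (median 0.03). Rad21, a core cohesin subunit, changed by -0.14 ± 0.03 in vitrified and 0.23 ± 0.03 in snap-frozen hippocampus, and Stag1, a subunit whose counts share reads with other genes, by 0.42 ± 0.04 in vitrified hippocampus and 0.33 ± 0.05 in vitrified cortex. Of 12 methylation genes, 5 rose and 4 fell in vitrified hippocampus (median 0.04), 4 rose and 4 fell in snap-frozen hippocampus (median 0.07), 3 rose and 1 fell in vitrified cortex (median 0.07), and 6 passed in snap-frozen cortex, all of them falls (median -0.15). The DNA methyltransferase Dnmt3a changed by 0.27 ± 0.04 in vitrified hippocampus, 0.35 ± 0.04 in vitrified cortex and -0.31 ± 0.04 in snap-frozen cortex, and Tet2, which oxidises methylcytosine, by 0.56 ± 0.05, 0.68 ± 0.06 and -0.57 ± 0.07.

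Of 18 cytoplasmic partner and shedding genes, 3 rose and 6 fell in vitrified hippocampus (median -0.03), 3 rose and 11 fell in snap-frozen hippocampus (median -0.27), 2 rose and 6 fell in vitrified cortex (median -0.04), and 5 rose and 3 fell in snap-frozen cortex (median 0.03). Ptk2b, or Pyk2, a kinase that the clustered protocadherins are known to inhibit, changed by 0.17 ± 0.02 in vitrified and -1.08 ± 0.02 in snap-frozen hippocampus, and Wasf1, a subunit of the WAVE complex that drives actin branching, by 0.20 ± 0.02 and -0.85 ± 0.02. Of 11 tested non-clustered protocadherins, 2 rose and 6 fell in vitrified hippocampus (median -0.24), 6 rose and 5 fell in snap-frozen hippocampus (median 0.17), 2 rose and 3 fell in vitrified cortex (median -0.06), and 3 rose and 1 fell in snap-frozen cortex (median 0.06). Pcdh10 (-0.42 ± 0.03) and Pcdh17 (-0.37 ± 0.04) fell in vitrified hippocampus, and Pcdh1 (-1.11 ± 0.02) and Pcdh20 (-1.09 ± 0.03) fell while Pcdh7 (0.97 ± 0.03) rose in snap-frozen hippocampus. Of 15 classical cadherin and catenin genes, 2 rose and 9 fell on vitrification in each tissue (median -0.14 in hippocampus and -0.12 in cortex), 6 rose and 6 fell in snap-frozen hippocampus (median -0.01), and 6 rose and 2 fell in snap-frozen cortex (median -0.04). All genes tested had a median between 0.00 and 0.03 in these 4 comparisons, in which 34.0 to 62.2% of genes were called. In snap-frozen hippocampus, snap-freezing and tissue content cannot be told apart for these genes either. There, 11 of 12 excitatory neuron genes fell (median -0.94). The part of cell and tissue differences in the changes of the listed genes was not tested.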

How the data were processed

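Poly(A) RNA libraries of hippocampus and cortex were stranded by dUTP marking and sequenced on the DNBSEQ platform, per the labels' protocols. The values deposited by the authors are expected counts per gene, 1 column for each of the 18 libraries, with 0 columns left unmapped. HISAT2 2.0.4 and GRCm38.p6 are named in the submitters' processing notes; which tool counted the reads, with which strand setting and annotation, is not given in the sources used here. Reads of overlapping antisense genes (14 members) may therefore be mixed, and reads of shared exons had to be divided among members.

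Expected counts were rounded to whole numbers, filtered with filterByExpr, scaled with TMM and tested with edgeR's quasi-likelihood test (edgeR 4.0.16, R 4.3.3), fitted on the 9 libraries of each tissue (14528 genes in hippocampus, 14470 in cortex) or on all 18 libraries for comparisons across tissues (14827 genes), with Benjamini-Hochberg adjustment over all genes and a threshold of 0.05. CPM values are expected counts divided by the library total and multiplied by 1000000, and CPM per kb divides them by the length of the member's transcript. Since fold changes use TMM, they differ from ratios of CPM: scaling by library totals moved the median of all genes in snap-frozen against fresh hippocampus from 0.01 to 0.13 (log2). Totals of 15725356 to 17480302 expected counts limit precision most for members near 3 counts (0.172 to 0.191 CPM). Members were matched to RefSeq GRCm38.p6 transcripts (57 of 57) for length, GC content and position; no sequence is printed. All adjusted p-values come from these edgeR fits.

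The members, gene lists and tests were chosen with earlier results of these data known, and regional marker lists and the replicate spread were added after the data were seen. Members named are the 5 C types, up to 4 called members per cluster and direction with the smallest p, and the 3 highest and lowest in fresh tissue; other called members were named after their values were seen. The test was checked on simulated data with 200 changed genes: for vitrified against fresh hippocampus it recovered 94.0, 84.0, 78.0 and 98.0% of 50 genes each at log2 changes of -1, -0.5, 0.5 and 1 among 14528 genes, with 5.85% false calls. The simulated counts were whole and independent, with 1 common coefficient of variation (1.695%) for all genes. These rates therefore do not cover alpha and gamma members, whose reads were divided and whose replicates spread more widely. Alternatives were RLE factors, library totals, other filters, DESeq2 1.42.0, limma-voom (limma 3.58.1), unrounded values, fits of only the compared groups, a replicate block, GC and length offsets, and leaving out each library. Replicate numbers showed no sign of pairing within a tissue, a check that cannot exclude it.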

Additional observations from a re-analysis of the deposited data

Results flagged for a closer look

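The members below had a change against fresh tissue that differed between cortex and hippocampus by the interaction test (edgeR's quasi-likelihood test over all 14827 genes, adjusted p below 0.05; positive where the change was more positive in cortex). For vitrification, the interaction was 0.32 for Pcdhgc3, 0.44 for Pcdhgb7, 0.29 for Pcdhga3, -0.29 for Pcdhga9, -0.25 for Pcdhac2 and -0.54 for Pcdha3 on the log2 scale. For Pcdhgc3 and Pcdhgb7 this was a larger fall in hippocampus.

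For snap-freezing, the alpha members that differed were Pcdha5 (0.48), Pcdha7 (0.56), Pcdhac1 (0.56), Pcdhac2 (0.21) and Pcdha8 (-1.09). Pcdha8 held under 3 CPM in every library. The beta members were Pcdhb6 (-0.80) and Pcdhb8 (-0.74), both with rises in snap-frozen hippocampus. The gamma members were Pcdhga2 (0.31), Pcdhga3 (0.76), Pcdhga5 (0.58), Pcdhga10 (0.40), Pcdhga11 (0.50), Pcdhga12 (0.23), Pcdhgc5 (0.85), Pcdhga7 (-0.44) and Pcdhgc4 (-0.996). The snap-frozen hippocampus libraries are those whose thalamus markers stood above the fresh libraries, and the part of that difference in these interactions was not tested. All 4 groups of each interaction held 3 libraries.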

How the results depend on the processing

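No call of a named member reversed. DESeq2 called fewer members: 4 in place of 8 rising in vitrified hippocampus, 3 in place of 8 rising in snap-frozen hippocampus, 6 in place of 10 lower in vitrified than in snap-frozen hippocampus, 1 in place of 6 rising in vitrified cortex, 3 in place of 6 falling in snap-frozen cortex, 1 in place of 3 for either direction of the vitrification interaction and 3 in place of 5 lower in the snap-freezing interaction. Library totals gave 15 in place of 8 rising in snap-frozen hippocampus, 16 in place of 10 lower in vitrified than in snap-frozen hippocampus, and 9 in place of 5 lower in the snap-freezing interaction. Leaving out 1 library gave 4 to 7 rising in vitrified hippocampus (4 without the second vitrified library, 5 without fresh library 1 or 3) and 4 to 6 rising in snap-frozen hippocampus (4 without the second fresh or first snap-frozen library, 5 without the first fresh or second snap-frozen one). It gave 2 to 7 rising in vitrified cortex (2 without the first vitrified library), and 1 to 5 rising and 1 to 7 falling in snap-frozen cortex (1 without the first and second fresh library). For the interactions it gave 1 to 3 lower for vitrification (1 without the third vitrified hippocampus or second fresh cortex library) and 3 to 6 lower for snap-freezing (3 without the second snap-frozen hippocampus library). All alternatives kept 7 of 15 calls in vitrified and 14 of 27 in snap-frozen hippocampus, and 5 of 12 and 2 of 10 in cortex. Of the named members' results, 154 lost and 37 gained a call when 1 library was left out and 1705 did neither; under the other settings the numbers were 69, 32 and 2529. Among the log2 ratios of cluster totals, 19 moved by at least the pooled SD of the libraries under TMM scaling. Another 23 results did not, among them the beta ratios from whole-count members, which repeat the main values. Totals could not be formed for alpha and gamma from members with whole values, since none had them. Depth limits members such as Pcdhb1.

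Replicate numbers of the titles showed no sign of pairing within a tissue. Deviations of same-numbered libraries correlated at -0.043 to 0.044 in hippocampus and -0.089 to 0.058 in cortex. Differently numbered libraries correlated at -0.073 to 0.052 in hippocampus and -0.057 to 0.127 in cortex. Since most of the spread within groups was near that of counting, values near 0 do not exclude pairing. Hippocampus libraries were not set against cortex libraries in this way. With a replicate block, 7 members rose and 7 fell in vitrified and 8 and 20 in snap-frozen hippocampus, 6 and 6 in vitrified and 5 and 7 in snap-frozen cortex. Other counts with the block were 21 higher and 10 lower for vitrified against snap-frozen hippocampus, 5 and 5 in cortex, 13 and 14 for fresh hippocampus against cortex, 2 and 3 for the vitrification and 10 and 6 for the snap-freezing interaction.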

Other observations

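Genes annotated as joining an alpha first exon to the gamma constant exons were looked up after the values of the members were seen, and were not tested. Gm37013, which spans chr18:36952648-37841873 from the first exon of Pcdha4, held 64.7, 33.7 and 66.2 expected counts in the fresh hippocampus libraries and 58.8, 45.9 and 82.0 in the fresh cortex libraries. In the snap-frozen and vitrified groups Gm37013 had 21.8 to 105.2 expected counts. Gm38666, which starts at the first exon of Pcdha6, held 21.8, 75.9 and 86.4 expected counts in fresh hippocampus and 84.1, 93.9 and 88.1 in fresh cortex. Gm38667, from the first exon of Pcdha7, was listed at 0 in all libraries except 2 fresh cortex libraries (12.7 and 13.3) and 1 snap-frozen cortex library (29.4). All 3 genes share their exons with members of both clusters, so these values rest on how the authors' counting divided reads, and counts given to them are missing from the alpha and gamma members.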
